A study of Mus musculus with 8 samples.

Results

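The genes described here act in the endoplasmic reticulum (ER), where secreted and membrane proteins are made. They are 38 genes in 4 roles: 16 for folding, 8 for translocation and signal peptide cleavage, 8 for degradation of misfolded proteins and 6 for stress signalling. Each was found by its symbol in the array's annotation, which gave 92 probe sets, of which 1 (Sec61b) was shared with another gene. In all, 86 of the 92 passed a filter on low signal, and all 38 genes had at least 1 such probe set, out of 12223 genes tested in the series. All samples came from Aid-GFP reporter mice, in which GFP marks cells with AID, the deaminase that starts class switching and somatic hypermutation of antibody genes. The 4 groups had 2 Affymetrix arrays each. They were GFP-positive BCR-ABL1 cells, GFP-negative BCR-ABL1 cells, GFP-positive splenic B cells and GFP-negative splenic B cells. BCR-ABL1 is the fusion kinase of a human leukaemia; these cells are labelled as BM, read here as bone marrow. The splenic B cells had been given LPS and IL4, a bacterial ligand and a cytokine that together start class switching. All 4 groups carried the reporter. The sources used here do not give how BCR-ABL1 was introduced, the mouse strain and age, the sort gates, the length of stimulation or the origin of the replicates. The p-values below therefore measure the spread between these arrays, which may be technical.

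A protein entering the secretory pathway passes through the SEC61 channel, loses its signal peptide, and is folded by chaperones, disulfide isomerases and lectins. Proteins that fail are drawn back out and degraded. When unfolded proteins build up, the sensors IRE1, PERK and ATF6 start the unfolded protein response, which raises chaperone and degradation genes through XBP1 and ATF6, and amino acid and redox genes through ATF4. B cells that turn into plasma cells widen this machinery to make antibody.

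The arrays of the GFP-negative splenic cells stood apart from the other 6. Their mean intensity, with 2% trimmed, averaged 489, against 593 for GFP-positive splenic cells, 595 for GFP-positive and 592 for GFP-negative BCR-ABL1 cells. Their ratio of 3' to 5' Gapdh signal, a measure of RNA integrity, averaged 1.91, against 1.43 to 1.47 in the other groups. They also carried markers of other cells. Signals of 9 myeloid markers summed to 353 to 382 in GFP-positive splenic arrays, against 79411 to 81501 in GFP-negative ones, and 7 T and NK cell markers summed to about 336 in both GFP-positive arrays, against 13724 to 15271 in GFP-negative ones. In GFP-positive splenic arrays 3 of the 9 (Camp, Ngp and Csf1r) and 1 of the 7 (Cd3g) were at the floor of 32, the value to which all lower signals were set. The corresponding sums in BCR-ABL1 cells were 677 to 687 (GFP-positive) and 588 to 648 (GFP-negative) for myeloid markers, and 517 to 537 and 378 to 407 for T and NK markers. Plasma cell markers (6 genes), a type rich in the genes described here, summed to 14693 to 14877 in GFP-positive splenic cells, against 35171 to 36453 in GFP-negative ones. Jchain, Igha, Irf4 and Sdc1 were called lower in GFP-positive splenic cells, Slamf7 was called higher (log2 fold change 0.91) and Prdm1 was not called (0.16). In BCR-ABL1 cells the 6 plasma cell markers summed to 8895 to 9004 (GFP-positive) and 7976 to 8006 (GFP-negative), mostly from Irf4. Between these 2 fractions Jchain (log2 fold change 1.70), Prdm1 (0.71) and Irf4 (0.21) were called higher in GFP-positive cells. Slamf7 (-1.75) was called lower, and Sdc1 and Igha were not called. The 6 pre-B markers summed to 33357 to 34203 in GFP-positive and 30109 to 30946 in GFP-negative BCR-ABL1 cells, against 1019.6 to 1404 in GFP-positive and 6596 to 7109 in GFP-negative splenic cells. Vpreb1 and Dntt carried most of the BCR-ABL1 sums, and Il7r and Igll1 those of GFP-negative splenic cells. Of the 6 B cell markers, Cd79a, Cd79b and Blnk were at 5444 or more in every array, and Pax5 at 55.6 or more. Ms4a1, which encodes CD20, was at 32 and 45.4 in GFP-positive BCR-ABL1 cells, against 443 and 576 in GFP-negative ones. Cd22 was at 218 and 212 in GFP-positive BCR-ABL1 cells, against 744 and 728 in GFP-negative ones, and at 4716 or more in splenic arrays. Both were called lower in GFP-positive BCR-ABL1 cells (-3.73 and -1.77).

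Regulatory letters near the gene starts were read from RefSeq promoters (mouse build GRCm38.p6), to show what a part of these genes shares in sequence. The ER stress element is the letters CCAAT, 9 bases of any kind and then CCACG, a site at which NF-Y and ATF6 are known to bind. Both strands of the 250 bases before each start were searched in the 31 members the table holds. The 7 not matched were Atf6, Hyou1, Manf, Derl1, Sec61a1, Sec11c and Spcs3. The element was found in 9 of the 31, which is 29.0%, against 35 of 27025 genes in the table, or 0.130%. Of all 32851 promoters, 37 held it (0.113%). The 9 were Hspa5, Hsp90b1 (with 2 elements), Pdia6, Calr, Canx, Dnajc3, Creld2, Syvn1 and Derl3, so 7 were folding genes and 2 degradation genes. Each is given below on the strand of its gene, 5' to 3', with the fixed letters of the element in capitals. An element on the opposite strand reads CGTGG, 9 bases, then ATTGG.
Hspa5: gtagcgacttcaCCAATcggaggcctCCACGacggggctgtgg
Hsp90b1: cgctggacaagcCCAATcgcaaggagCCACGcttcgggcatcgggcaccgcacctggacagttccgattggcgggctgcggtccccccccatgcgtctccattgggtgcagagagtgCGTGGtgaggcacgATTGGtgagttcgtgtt
Pdia6: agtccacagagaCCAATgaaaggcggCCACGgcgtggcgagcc
Calr: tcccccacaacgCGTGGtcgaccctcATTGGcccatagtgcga
Canx: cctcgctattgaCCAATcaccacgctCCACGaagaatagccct
Dnajc3: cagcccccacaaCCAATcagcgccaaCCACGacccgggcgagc
Creld2: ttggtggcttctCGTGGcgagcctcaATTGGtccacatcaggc
Syvn1: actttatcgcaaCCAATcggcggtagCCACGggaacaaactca
Derl3: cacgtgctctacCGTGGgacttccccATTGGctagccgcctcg

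On the plus strand these stretches lie at chr2:34772013-34772055 (Hspa5), chr12:17266479-17266521 (Pdia6), chr14:118937815-118937857 (Dnajc3), chr15:88819508-88819550 (Creld2), chr19:6046520-6046562 (Syvn1) and chr10:75893230-75893272 (Derl3). On the minus strand they lie at chr10:86705521-86705668 (Hsp90b1), chr8:84847063-84847105 (Calr) and chr11:50325788-50325830 (Canx). All fall within the promoter, from 224 to 14 bases before the annotated start. The short motif CCACG, which is also the last part of the element, occurred in 23 of 31 members (74.2%), against 31.0% of all genes in the table and 28.3% of all promoters. The letters TGACGTGG, the core of an element bound by XBP1 and ATF6, occurred in 0 of 31, against 0.603% of genes and 0.563% of promoters. The letters TGATGNAA, the core of the element bound by ATF4 with a C/EBP partner, occurred in 2 of 31 (6.45%), Herpud1 and Chac1, against 3.91% of genes and 3.45% of promoters. Chac1 is a target of ATF4, and its match, on the opposite strand at chr2:119351037-119351068, is shown because Chac1 had one of the larger splenic changes (below).
Chac1: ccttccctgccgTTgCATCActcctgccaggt

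The capitals there are again the fixed letters. These matches describe the letters in a window and do not show binding.

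Across the 8 arrays, the members fell into a small number of patterns. After quantile normalization folding genes as a group were highest in GFP-positive splenic cells, though for some of them this depends on the scaling described below. Folding genes had a median of 0.37 to 0.39 above each gene's own mean (log2 normalized signal) in GFP-positive splenic arrays, against -0.30 and -0.27 in GFP-negative ones. In BCR-ABL1 arrays this median was -0.062 and -0.046 in GFP-positive cells, against -0.064 and -0.0081 in GFP-negative cells. For stress signalling genes it was 0.49 and 0.58 in GFP-positive splenic arrays, against -0.23 and -0.17 in GFP-negative ones. For translocation genes it was 0.21 and 0.19, against -0.30 and -0.33. For degradation genes the splenic groups lay close together, at 0.234 and 0.232, against 0.17 and 0.22.

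**Figure D1:**
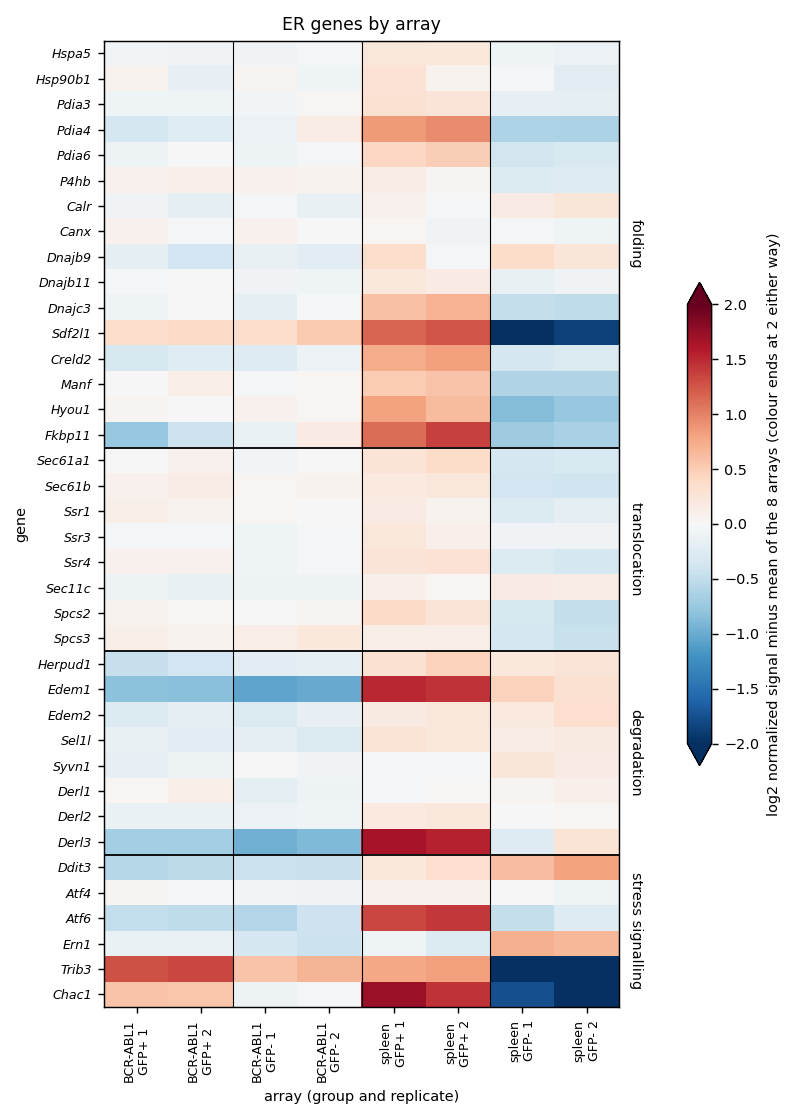
Log2 normalized signal of each of the 38 genes (rows, by role) on each of the 8 arrays (columns, by group and replicate), as the difference from that gene's mean over the arrays; red is above and blue below it. GFP-positive splenic arrays are red in many folding rows, which for some depends on the scaling of the arrays, Edem1 and Derl3 are blue in all 4 BCR-ABL1 arrays, and Trib3 and Chac1 are darkest blue in GFP-negative splenic arrays.

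In BCR-ABL1 cells, GFP-positive and GFP-negative fractions differed in 1 of the 38 genes. Trib3, a pseudokinase induced by ATF4 and CHOP, was 1.60-fold higher in GFP-positive cells. Of the 38 genes, 1 (2.63%) was called higher and 0 lower, with an adjusted p under 0.05 taken as a call (limma, with Benjamini-Hochberg adjustment over all genes tested). Over all genes, 5.37% were called, 3.07% higher and 2.3% lower. The members' median log2 fold change was 0.0051, against 0 over all genes tested. An unadjusted p under 0.05 (limma) was found in 8 of the 38 members and in 1863 of all 12223 genes. For 32 of the 38 the 95% interval of the log2 fold change lay within 0.5 either way; the other 6 were Pdia4, Fkbp11, Derl3, Ern1, Trib3 and Chac1.

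Trib3 had normalized signals of 994 and 1033 in GFP-positive BCR-ABL1 cells, against 609 and 658 in GFP-negative BCR-ABL1 cells. The fractions did not overlap, and both GFP-positive arrays were above both GFP-negative ones. The log2 fold change ± standard error was 0.68 ± 0.11, adjusted p = 0.011 (limma), the form used below. A second probe set of Trib3 was also called, at 0.77 ± 0.14, with signals of 624 and 602 in GFP-positive BCR-ABL1 cells, against 332 and 389.8 in GFP-negative BCR-ABL1 cells. Leaving out any of the 4 BCR-ABL1 arrays ended the call, with log2 fold changes of 0.62 to 0.73. The adjusted p was 0.14 without GFP-positive replicate 2, 0.11 without GFP-positive replicate 1, 0.12 without GFP-negative replicate 1 and 0.066 without GFP-negative replicate 2 (limma).

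Chac1, which breaks down glutathione, had signals of 322 and 318 in GFP-positive BCR-ABL1 cells, against 203 and 213 in GFP-negative BCR-ABL1 cells. These did not overlap either, but the log2 fold change of 0.62 ± 0.21 did not pass (adjusted p = 0.18, limma). Atf4, the transcription factor that drives both, had 7618 and 7169 in GFP-positive BCR-ABL1 cells, against 7054 and 6993 in GFP-negative BCR-ABL1 cells. Its fractions did not overlap but lay close together, at a log2 fold change of 0.073 ± 0.044, adjusted p = 0.54 (limma). Ddit3, which encodes CHOP, had 713 and 733 in GFP-positive BCR-ABL1 cells, against 791 and 781 in GFP-negative BCR-ABL1 cells. It was slightly lower in both GFP-positive arrays (-0.12 ± 0.089, adjusted p = 0.68, limma). Atf6, the membrane-bound sensor and transcription factor, had 795 and 792 in GFP-positive BCR-ABL1 cells, against 749 and 839 in GFP-negative BCR-ABL1 cells, and the fractions overlapped. Its interval for the log2 fold change ran from -0.22 to 0.23. Ern1, which encodes the sensor IRE1, had 353 and 353 in GFP-positive BCR-ABL1 cells, against 307 and 286 in GFP-negative BCR-ABL1 cells, without overlap (0.25 ± 0.11, adjusted p = 0.33, limma). Xbp1, no member but the transcript that IRE1 splices, had 4316 and 3871 in GFP-positive BCR-ABL1 cells, against 3469 and 3575 in GFP-negative BCR-ABL1 cells (0.22 ± 0.065, adjusted p = 0.12, limma). The arrays do not tell spliced from unspliced Xbp1.

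**Figure D2:**
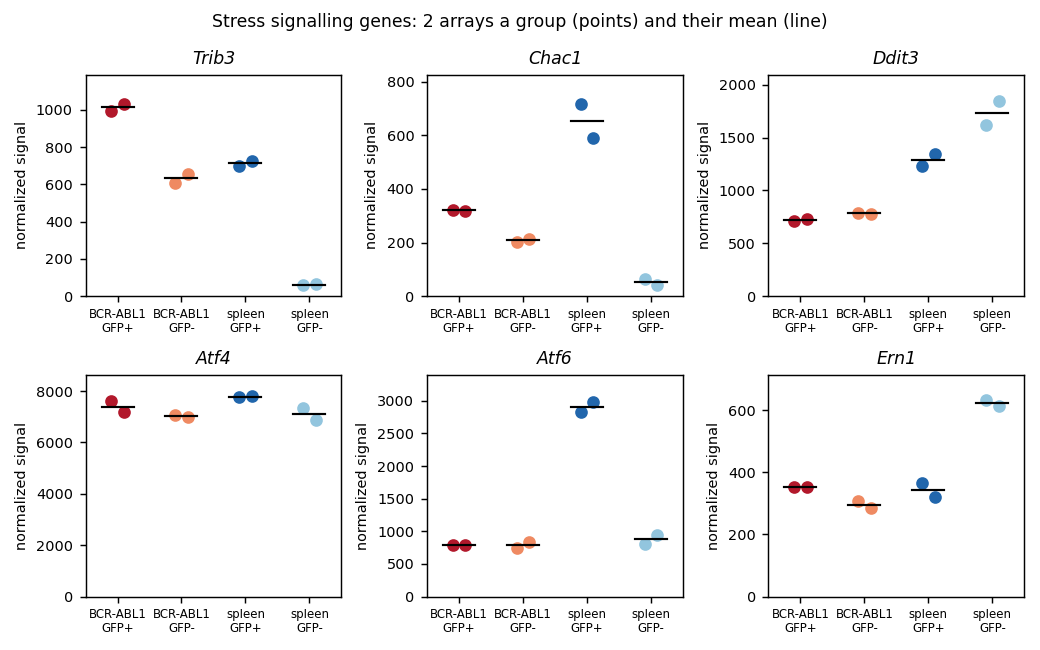
Normalized signal (linear axis from 0) of 6 stress signalling genes in the 4 groups; points are the 2 arrays of a group and lines their mean. Trib3 is highest in GFP-positive BCR-ABL1 cells, Chac1 and Atf6 in GFP-positive splenic cells, and Ddit3 and Ern1 in GFP-negative splenic cells; the splenic differences of Ddit3 and Ern1 depend on how the arrays are scaled, Ddit3 also in sign.

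No folding, translocation or degradation gene passed in BCR-ABL1 cells. Hspa5 and Hsp90b1, the main chaperones, overlapped between the fractions. Hspa5, which encodes the chaperone BiP, had 6814 and 6738 in GFP-positive BCR-ABL1 cells, against 6709 and 6857 in GFP-negative BCR-ABL1 cells, with an interval of the log2 fold change from -0.076 to 0.073. Hsp90b1, the ER form of HSP90, had 5266 and 4483 in GFP-positive BCR-ABL1 cells, against 5211 and 4736 in GFP-negative BCR-ABL1 cells, with an interval from -0.27 to 0.21. Fkbp11, a prolyl isomerase of secretory cells, had 125 and 158 in GFP-positive BCR-ABL1 cells, against 194 and 237 in GFP-negative BCR-ABL1 cells, so both GFP-positive arrays lay below the others (-0.61 ± 0.17, adjusted p = 0.098, limma). Pdia4, a disulfide isomerase, showed the same order, with 752 and 809 in GFP-positive BCR-ABL1 cells, against 882 and 1063 in GFP-negative BCR-ABL1 cells (-0.31 ± 0.10, adjusted p = 0.17, limma). Of the degradation genes, Herpud1, a scaffold of the degradation complex, had 2562 and 2717 in GFP-positive BCR-ABL1 cells, against 3053 and 3101 in GFP-negative BCR-ABL1 cells (-0.22 ± 0.060, adjusted p = 0.088, limma). Derl1, which belongs to the derlin family of the retrotranslocation complex, had 2168 and 2279 in GFP-positive BCR-ABL1 cells, against 1841 and 1963 in GFP-negative BCR-ABL1 cells (0.23 ± 0.061, adjusted p = 0.086, limma). The fractions did not overlap in Herpud1 or Derl1. Ssr4, of the translocon-associated complex, had 6357 and 6345 in GFP-positive BCR-ABL1 cells, against 5631 and 5855 in GFP-negative BCR-ABL1 cells, also without overlap (0.15 ± 0.041, adjusted p = 0.10, limma). Edem1, which directs glycoproteins to degradation, had 789 and 786 in GFP-positive BCR-ABL1 cells, against 676 and 698 in GFP-negative BCR-ABL1 cells (0.20 ± 0.076, adjusted p = 0.25, limma). Of 85 tested probe sets with 1 symbol, the 2 of Trib3 alone were called, and all 85 lay between -0.61 and 0.77.

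In splenic cells, 31 of the 38 genes (81.6%) differed between the fractions, a share close to that of all genes. In GFP-positive cells 27 (71.1%) were higher and 4 lower, where 77.1% of all genes were called, 45.7% higher and 31.4% lower. By role, 13 of 16 folding genes rose and 1 fell, 7 of 8 translocation genes rose, 3 of 8 degradation genes rose and 1 fell, and 4 of 6 stress signalling genes rose and 2 fell. The members' median log2 fold change was 0.41, against 0.18 over all genes. At 2-fold or more, 12 of the 38 members were called, all of them higher. Of all 12223 genes, 4438 (36.3%) were called at 2-fold or more in either direction.

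These splenic counts depend on how the arrays are put on a common scale. The results above are after quantile normalization. On the deposited scale 31 members were higher and 1 lower; with all arrays shifted to the same median, 35 and 0; with the median taken over the tested genes, 14 and 19; and with arrays centred on the median log2 ratio of the tested genes, 19 and 9. Over all genes the share of calls that were higher was 59.2% after quantile normalization, and 69.0%, 75.1%, 35.4% and 50.03% on those scales in the same order. The median log2 fold change of all genes was 0.18, 0.39, 0.55, -0.35 and -0.0091, and 25 or 26 of the 38 members lay above it on each of the 5 scales. The members called higher on all 5 scales numbered 14 of 38 (36.8%), against 28.5% of all genes, and those called lower on all 5 numbered 0, against 19.9%. The 14 were the folding genes Pdia4, Pdia6, Dnajc3, Sdf2l1, Creld2, Manf, Hyou1 and Fkbp11, the signal peptidase gene Spcs2, the degradation genes Edem1 and Derl3, and the stress signalling genes Atf6, Trib3 and Chac1. The marker sums, mean intensity and 3' to 5' ratio given above also differed between GFP-positive and GFP-negative splenic arrays; their part in each result was not tested. In bulk RNA, fewer cells of a type and less RNA per cell cannot be told apart.

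**Figure D3:**
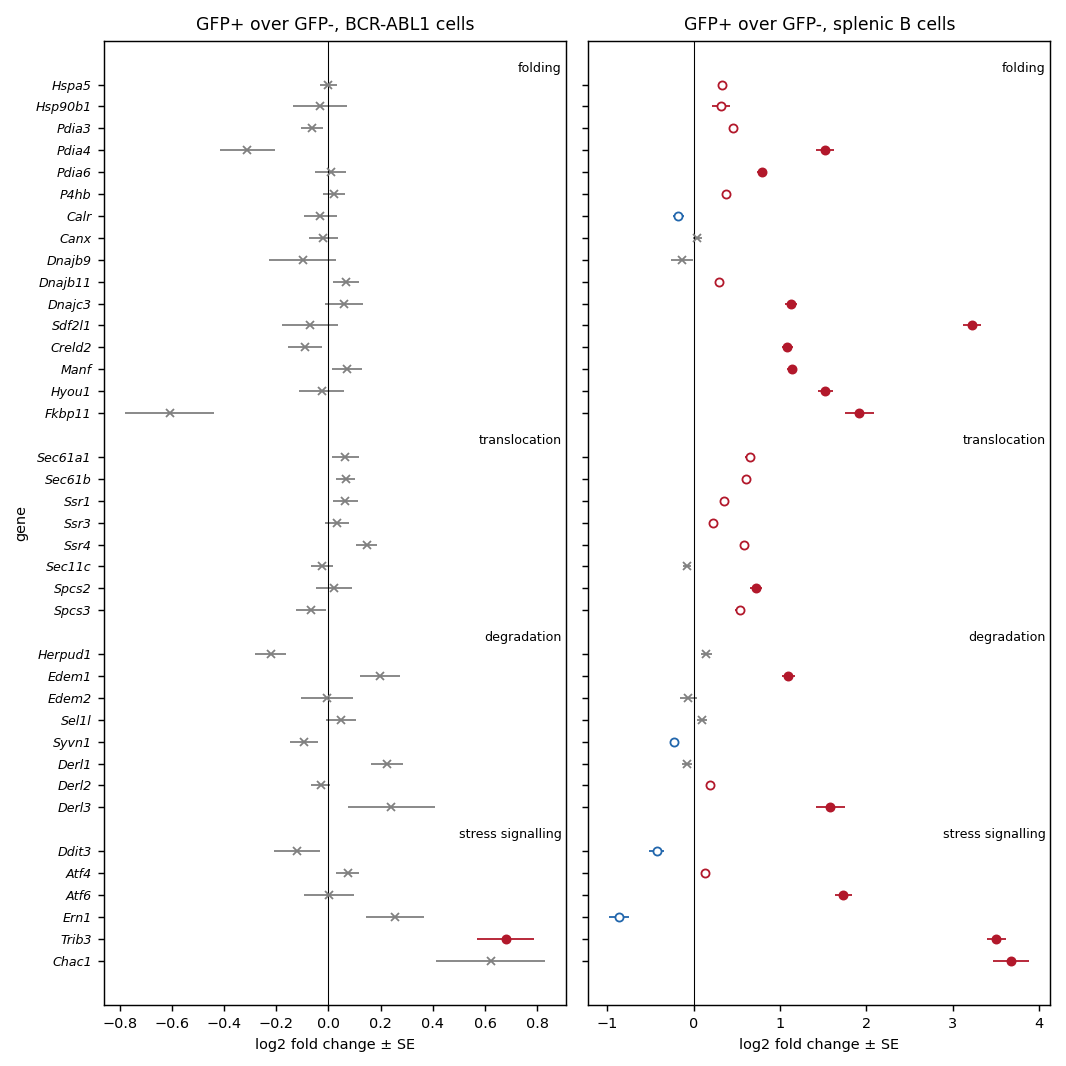
Log2 fold change ± standard error, GFP-positive over GFP-negative, for the 38 genes by role in BCR-ABL1 cells (left) and splenic cells (right; the axes differ in range). Red circles are called higher, blue circles lower, grey crosses not called, and filled circles are called in that direction on all 5 scales, while open circles lose the call or change sign on at least 1; Trib3 is the only filled point on the left, and 14 are filled on the right.

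Among stress signalling genes the splenic changes ran both ways. Chac1 had 717 and 591 in GFP-positive splenic cells, against 63.9 and 40.4 in GFP-negative splenic cells. Both GFP-positive arrays were far above the others, and the log2 fold change was 3.68 ± 0.21, adjusted p = 8.5e-07 (limma). This was the largest of the 38 after quantile normalization, whereas Sdf2l1 was the largest on the 4 other scales, and the GFP-negative signals of Chac1 lie near the floor of 32. Trib3 had 701 and 725 in GFP-positive splenic cells, against 58.9 and 66.8 in GFP-negative splenic cells, without overlap (3.51 ± 0.11, adjusted p = 3.8e-08, limma). Its second probe set gave 3.16 ± 0.14. Atf6 had 2828 and 2978 in GFP-positive splenic cells, against 808 and 942 in GFP-negative splenic cells, a 3.33-fold difference without overlap (1.73 ± 0.098, adjusted p = 7.9e-07, limma). Its 2 other tested probe sets were also called higher, at 0.84 and 1.77.

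Atf4 had 7766 and 7802 in GFP-positive splenic cells, against 7348 and 6881 in GFP-negative splenic cells. The fractions did not overlap, and the log2 fold change of 0.13 ± 0.044, adjusted p = 0.024 (limma) became -0.54 with the median over tested genes and -0.20 with the median ratio. Its other probe sets were called in opposite directions, at -0.43 and 0.99. Ddit3 had 1234 and 1346 in GFP-positive splenic cells, against 1624 and 1849 in GFP-negative splenic cells, lower in both GFP-positive arrays (-0.43 ± 0.089, adjusted p = 0.0022, limma). It was called lower on 3 of the 5 scales and stood at 0.11 with all arrays shifted to the same median. Its second probe set was lower too, at -1.11. Ern1 had 365 and 319.9 in GFP-positive splenic cells, against 632 and 614 in GFP-negative splenic cells, without overlap (-0.87 ± 0.11, adjusted p = 0.00012, limma). It was negative on all 5 scales and called lower on 4, with -0.19 on the other. Another Ern1 probe set went the opposite way, at 1.29 ± 0.16, with signals of 104 and 105 in GFP-positive splenic cells, against 36.7 and 49.5 in GFP-negative splenic cells, and the remaining one was at -1.29.

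Of the folding genes, Sdf2l1, a partner of the BiP co-chaperone ERdj3, changed most on all 5 scales. It had 3626 and 3849 in GFP-positive splenic cells, against 359.5 and 443 in GFP-negative splenic cells, a 9.36-fold difference without overlap (3.23 ± 0.11, adjusted p = 4.9e-08, limma). Fkbp11 had 459 and 547 in GFP-positive splenic cells, against 129 and 136 in GFP-negative splenic cells (1.92 ± 0.17, adjusted p = 1.2e-05, limma). Pdia4 had 1721 and 1846 in GFP-positive splenic cells, against 622 and 616 in GFP-negative splenic cells (1.53 ± 0.10, adjusted p = 2.5e-06, limma). Neither overlapped between fractions. Hyou1, an exchange factor for BiP, had 1849 and 1648 in GFP-positive splenic cells, against 584 and 631 in GFP-negative splenic cells, again without overlap (1.52 ± 0.087, adjusted p = 8.4e-07, limma). Manf, a secreted ER stress protein, and Dnajc3, a co-chaperone, rose by 1.14 and 1.13, Creld2 by 1.08 and Pdia6 by 0.79 on the log2 scale.

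In their brightest probe sets the main chaperones had small differences whose sign depended on the scale. After quantile normalization the other tested probe sets stood at 0.30 and 1.40 for Hspa5, 0.79 for Hsp90b1 and 1.19 for Pdia3. Those of Calr stood at -0.19 and -0.23, and those of Canx at 1.45 and 2.65. Hspa5 had 8272 and 8207 in GFP-positive splenic cells, against 6635 and 6502 in GFP-negative splenic cells. Both GFP-positive arrays were above the others, and the log2 fold change was 0.33 ± 0.032, adjusted p = 2.3e-05 (limma), but -0.33 with the median over tested genes. Hsp90b1 had 6105 and 5276 in GFP-positive splenic cells, against 4876 and 4272 in GFP-negative splenic cells, also without overlap (0.31 ± 0.10, adjusted p = 0.023, limma), and stood at -0.28 on that scale. Pdia3, P4hb and Dnajb11 were called higher at 0.46, 0.37 and 0.29, and all 3 were negative with the median over tested genes. Calr, a lectin chaperone, had 8056 and 7348 in GFP-positive splenic cells, against 8458 and 8931 in GFP-negative splenic cells, lower in GFP-positive arrays (-0.18 ± 0.063, adjusted p = 0.031, limma), but 0.037 with all arrays shifted to the same median. Its membrane-bound relative Canx (0.042) and the co-chaperone Dnajb9 (-0.13) were not called after quantile normalization. With all arrays shifted to the same median Dnajb9 was called higher (0.48). Of the 9 genes printed above with an ER stress element, Pdia6, Dnajc3, Creld2 and Derl3 were higher on all 5 scales. Hspa5 and Hsp90b1 were called higher here and lower with the median over tested genes. Calr and Syvn1 were called lower here but not on every scale. Canx was not called here, but was called lower with the median over tested genes (-0.62) and with the median ratio (-0.27).

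The 7 called translocation genes lay between 0.23 and 0.72 on the log2 scale. Sec61a1, the channel itself, had 6455 and 6915 in GFP-positive splenic cells, against 4191 and 4339.5 in GFP-negative splenic cells, without overlap (0.65 ± 0.051, adjusted p = 5.3e-06, limma). Sec61b, a small channel subunit, was at 0.60, and the translocon-associated genes Ssr1, Ssr3 and Ssr4 at 0.35, 0.23 and 0.59. Ssr4 had 7119 and 7318 in GFP-positive splenic cells, against 4929 and 4671 in GFP-negative splenic cells. Spcs2, an accessory subunit of signal peptidase, had 3797 and 3459 in GFP-positive splenic cells, against 2326 and 2087 in GFP-negative splenic cells (0.72 ± 0.070, adjusted p = 2.2e-05, limma) and was the 1 translocation gene higher on all 5 scales. Spcs3, of the same enzyme, was at 0.54. Sec11c, a catalytic subunit of this enzyme, was not called at -0.079, but its other tested probe set stood at -1.17. With all arrays shifted to the same median Sec11c was called higher (0.26). With the median over tested genes, Sec61b and Ssr4 were slightly negative and Ssr1 and Ssr3 were called lower.

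Among degradation genes, Derl3 and Edem1 stood out. Derl3, the derlin of secretory cells, had 1038 and 967 in GFP-positive splenic cells, against 279 and 401 in GFP-negative splenic cells, without overlap (1.58 ± 0.17, adjusted p = 3.6e-05, limma). Edem1 had 3962 and 3826 in GFP-positive splenic cells, against 1931 and 1722 in GFP-negative splenic cells (1.09 ± 0.076, adjusted p = 2.6e-06, limma), but its second probe set, at -0.046, was not called. Derl2 was called at 0.19 and was negative on 2 of the 5 scales. Syvn1, the ubiquitin ligase of this pathway, had 2644 and 2639 in GFP-positive splenic cells, against 3173 and 3002 in GFP-negative splenic cells. It was lower in both GFP-positive arrays (-0.22 ± 0.055, adjusted p = 0.0052, limma), yet at 0.013 on the deposited scale and 0.17 with a common median. Its adaptor Sel1l (0.092), Herpud1 (0.15), Edem2 (-0.064) and Derl1 (-0.079) were not called after quantile normalization. On the deposited scale and with a common median, Edem2 (0.49 and 0.65) and Derl1 (0.24 and 0.39) were called higher. With the median over tested genes Sel1l (-0.44) and Herpud1 (-0.43) were called lower. Other tested probe sets of Derl1 ran from 0.035 to 2.21.

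Probe sets of the same gene gave unlike splenic values. Of 85 tested probe sets, 61 (71.8%) were higher and 10 (11.8%) lower in GFP-positive cells, where 44.9% of all tested probe sets were higher and 33.3% lower. Of the 25 members with several, 10 had all of them higher, 1 (Ddit3) all lower, 10 a mixture of called and not called, and 4 (Atf4, Ern1, Sec61a1 and Ssr4) had calls in both directions. The median distance between the highest and lowest log2 fold change within a gene was 0.94. It was largest in Sec61a1, from -0.90 to 3.06, and the higher value rests on the floor of 32 in both GFP-negative arrays. Canx ran from 0.042 to 2.65, and Sel1l from 0.092 to 2.51. In 17 of the 25 genes the brightest probe set, which stands for the gene above, was not the one with the highest log2 fold change. The 3' to 5' ratio of Gapdh differed between these groups, as given above; its part in this spread was not tested.

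**Figure D4:**
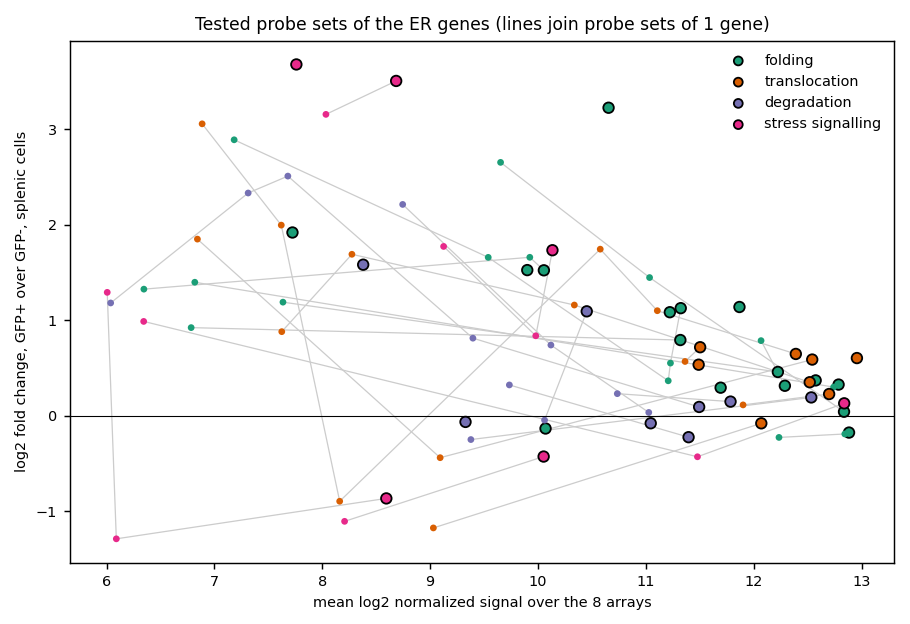
Splenic log2 fold change (GFP-positive over GFP-negative) of the 85 tested probe sets against their mean log2 normalized signal over 8 arrays, coloured by role, with lines joining the probe sets of a gene and large outlined points marking the brightest. Values spread from -1.29 to 3.68, and within Canx, Sel1l and Sec61a1 some probe sets lie far from the brightest.

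The GFP effects of the BCR-ABL1 and splenic cells were then set against each other as a difference, BCR-ABL1 minus spleen. It was called in 28 of 38 members (73.7%), 26 (68.4%) lower and 2 higher, where 69% of all genes were called, 41% lower and 28% higher. On all 5 scales 13 members (34.2%) were lower, against 25.7% of all genes, and 1 was higher, against 18.4%. The 13 were 8 folding, 2 degradation and 3 stress signalling genes. The 1 higher was Ern1, at 1.12 ± 0.16, adjusted p = 0.00029 (limma), but its probe sets were called in both directions. The largest were Sdf2l1 (-3.30 ± 0.15), Chac1 (-3.06 ± 0.30), Trib3 (-2.83 ± 0.16) and Fkbp11 (-2.53 ± 0.24). For Fkbp11 and Pdia4 the 2 effects had opposite signs, though neither passed in BCR-ABL1 cells. The GFP-negative splenic arrays enter every one of these differences. Of the 25 members with several probe sets, 10 had all of them lower, 0 all higher, 9 a mixture of called and not called and 2 none called. The remaining 4 (Derl1, Ern1, Sec61a1 and Ssr4) had calls in both directions. The matching shares over all genes with several probe sets were not computed. Of the 85 tested probe sets of members, 69.4% were lower and 8.24% higher, where 69.8% of all tested probe sets were called in either direction.

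BCR-ABL1 and splenic cells were also compared within the GFP-positive fraction, where neither group had the marker sums, low intensity or high 3' to 5' ratio of the GFP-negative splenic arrays. Here 28 of 38 members (73.7%) differed, 27 (71.1%) lower and 1 higher in BCR-ABL1 cells, where 50.3% of all genes were called, 25.5% lower and 24.8% higher. On all 5 scales, 27 were called lower and 1 higher, against 23.3% and 21.8% of all genes. The median was -0.31, against -0.046 over all genes. At 2-fold or more, 7 of the 38 members were called, all lower, where 15.5% of all genes were called in either direction. The sources differ in tissue, transformation and stimulation, which cannot be told apart. Plasma cell markers summed to 8895 to 9004 in these BCR-ABL1 arrays and 14693 to 14877 in the splenic ones. Of them Jchain, Slamf7, Igha and Prdm1 were called lower in BCR-ABL1 cells, and Sdc1 (log2 fold change 1.32) and Irf4 (0.14) higher; their part was not tested. Of the 85 tested probe sets of members, 57.6% were lower and 4.71% higher, where 44% of all tested probe sets were called in either direction. Of the 25 members with several probe sets, 8 had all of them lower, 1 all higher, 10 a mixture of called and not called, 4 none called, and 2 (Derl2 and Ssr1) calls in both directions. The matching shares over all genes with several probe sets were not computed.

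Degradation genes included the 2 largest differences. Edem1 had 789 and 786 in BCR-ABL1 cells, against 3962 and 3826 in splenic cells, so it was about 0.20 times the splenic level (-2.30 ± 0.076, adjusted p = 7.0e-08, limma). Derl3 had 208 and 208 in BCR-ABL1 cells, against 1038 and 967 in splenic cells (-2.27 ± 0.17, adjusted p = 9.0e-06, limma). Neither overlapped between sources. Herpud1 had 2562 and 2717 in BCR-ABL1 cells, against 4372 and 4831 in splenic cells (-0.80 ± 0.060, adjusted p = 1.0e-05, limma). Sel1l, Edem2 and Derl2 were lower by smaller amounts, at -0.44, -0.43 and -0.34 (Derl2 at 0.22 with its probe sets averaged), while Syvn1 (-0.10) and Derl1 (0.074) were not called.

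Of 16 folding genes 12 were lower. Fkbp11 had 125 and 158 in BCR-ABL1 cells, against 459 and 547 in splenic cells (-1.83 ± 0.17, adjusted p = 3.7e-05, limma). Pdia4 had 752 and 809 in BCR-ABL1 cells, against 1721 and 1846 in splenic cells (-1.19 ± 0.10, adjusted p = 2.6e-05, limma), and Creld2 1911 and 2021 in BCR-ABL1 cells, against 3981 and 4214 in splenic cells (-1.06 ± 0.066, adjusted p = 3.2e-06, limma). All 3 were at least 2-fold lower without overlap. Sdf2l1, Hyou1 and Dnajc3 were at -0.85, -0.68 and -0.68, and Pdia6, Manf, Dnajb9 and Pdia3 between -0.51 and -0.36. Hspa5 had 6814 and 6738 in BCR-ABL1 cells, against 8272 and 8207 in splenic cells, a small and even difference (-0.28 ± 0.032, adjusted p = 0.00013, limma), and Dnajb11 was at -0.20. Hsp90b1 (-0.22), Calr (-0.16), P4hb (-0.0046) and Canx (0.051) were not called.

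Translocation genes had small differences. Of 8, 6 were lower, from -0.28 in Sec61a1 to -0.097 in Sec61b, and Ssr1 (-0.025) and Spcs3 (-0.038) were not called. Sec61a1 had 5356 and 5678 in BCR-ABL1 cells, against 6455 and 6915 in splenic cells. None reached 2-fold.

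Of the stress signalling genes, Atf6 had 795 and 792 in BCR-ABL1 cells, against 2828 and 2978 in splenic cells, without overlap (-1.87 ± 0.098, adjusted p = 1.1e-06, limma). Chac1 had 322 and 318 in BCR-ABL1 cells, against 717 and 591 in splenic cells (-1.02 ± 0.21, adjusted p = 0.0037, limma), and Ddit3 713 and 733 in BCR-ABL1 cells, against 1234 and 1346 in splenic cells (-0.83 ± 0.089, adjusted p = 8.9e-05, limma). All 3 were lower in BCR-ABL1 cells. Trib3 went the other way, with 994 and 1033 in BCR-ABL1 cells, against 701 and 725 in splenic cells (0.51 ± 0.11, adjusted p = 0.0052, limma), and this call was lost without BCR-ABL1 GFP-positive replicate 2 (0.48, adjusted p = 0.053). Atf4 (-0.075) and Ern1 (0.047) were not called.

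**Figure D5:**
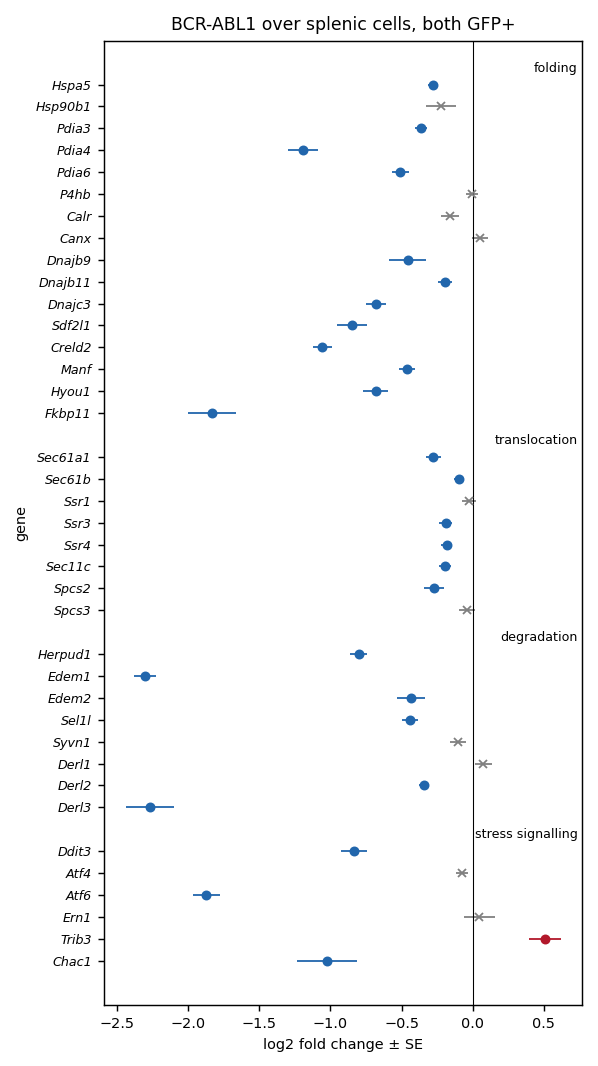
Log2 fold change ± standard error of the 38 genes by role, BCR-ABL1 over splenic cells, both GFP-positive. Blue circles are called lower and the red circle (Trib3) higher, all filled because they were called so on all 5 scales; grey crosses are not called, and Edem1 and Derl3 lie lowest, at -2.30 and -2.27.

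Within the GFP-negative fraction, 30 of 38 members were called, 17 higher and 13 lower in BCR-ABL1 cells, where 78.5% of all genes were called, 45.7% higher and 32.8% lower. The split turned with the scale. It was 22 higher and 7 lower on the deposited scale, 27 and 4 with all arrays shifted to the same median, 5 and 28 with the median over tested genes, and 12 and 18 with the median ratio. Over all genes 80.9%, 81.7%, 82.9% and 81.2% were called in either direction on those scales, in the same order. On all 5 scales 5 members were called higher and 4 lower. The share of all genes called so on all 5 was not computed for this comparison. All 8 degradation genes were called lower after quantile normalization, but 4 were on the deposited scale, and with all arrays shifted to the same median 2 were called lower and 2 higher. Edem1 (-1.41), Ddit3 (-1.14), Ern1 (-1.07) and Derl3 (-0.93) were lower on all 5 scales, though probe sets of Ern1 were called in both directions. Trib3 (3.34), Sdf2l1 (2.45), Chac1 (2.03), Hyou1 (0.87) and Pdia4 (0.65) were higher on all 5. This comparison rests on the GFP-negative splenic arrays with their marker sums and lower intensity.

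Other genes of the same pathways were read in a list of further folding, translocation, N-glycosylation, degradation, stress signalling and ER-to-Golgi genes, of which 80 were tested. In BCR-ABL1 cells 0 of the 80 were called by limma, where 5.37% of all genes were. An unadjusted p under 0.05 was found in 8 of the 80 and in 1863 of all 12223 genes. In splenic cells 51 (63.8%) were higher and 12 (15%) lower, with a median of 0.39, against 45.7% and 31.4% of all genes. On all 5 scales 23 (28.8%) were higher and 3 (3.75%) lower, against 28.5% and 19.9% of all genes. The stress signalling genes of this list ran both ways, with 9 of 19 higher and 6 lower. The largest rises, in that group, were targets of ATF4. Asns, which makes asparagine, had 6276 and 6155 in GFP-positive splenic cells, against 568 and 503 in GFP-negative splenic cells (3.54 ± 0.065, adjusted p = 4.9e-09, limma). Atf5 had 1026 and 1126 in GFP-positive splenic cells, against 124 and 89.8 in GFP-negative splenic cells (3.35 ± 0.18, adjusted p = 5.6e-07, limma), and Atf3 1246 and 1266 in GFP-positive splenic cells, against 209.6 and 318 in GFP-negative splenic cells (2.28 ± 0.19, adjusted p = 8.6e-06, limma). In BCR-ABL1 cells these 3 were at 0.22, 0.19 and 0.27, with no call. Xbp1 had 3638 and 3625 in GFP-positive splenic cells, against 4722 and 4328 in GFP-negative splenic cells, lower in both GFP-positive arrays (-0.32 ± 0.065, adjusted p = 0.0020, limma), but at 0.017 with all arrays shifted to the same median. Eif2ak3, which encodes the sensor PERK and was picked out after its values were seen, had 1627 and 1795 in GFP-positive splenic cells, against 5333 and 5269 in GFP-negative splenic cells (-1.63 ± 0.066, adjusted p = 1.3e-07, limma). In the other lists the largest splenic rises were Sec24d (1.73) and Lman1 (1.36) of ER-to-Golgi transport, Sil1 (1.29), an exchange factor for BiP, Srprb (1.24) of the signal recognition particle receptor, Magt1 (0.98) of the oligosaccharyltransferase, and Ube2g2 (0.88), a ubiquitin-conjugating enzyme. Between the GFP-positive fractions, 38 of the 80 (47.5%) were lower and 9 (11.2%) higher in BCR-ABL1 cells, with a median of -0.19, against 25.5% and 24.8% of all genes. On all 5 scales 36 (45%) were lower and 5 (6.25%) higher, against 23.3% and 21.8% of all genes.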

How the data were processed

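The authors deposited linear intensities of 45101 probe sets on 8 arrays. Per the submitters' processing notes GCOS 1.3 was used; how probe sets were summarised and scaled is not given in the sources used here. Because 2% trimmed means differed by a ratio of 1.24 (1.1 allowed), arrays were quantile normalized, floored at 32 and log2 transformed. Without 64 controls, probe sets under the 40th percentile (log2 5.67, a signal of 51.0) were not tested. Annotation gave 1 symbol to 34945, several to 932 and none to 9160, and a gene is its brightest tested probe set with 1 symbol. limma 3.58.1 in R 4.3.3 (lmFit, eBayes with trend) fitted 12223 genes as 4 group means, leaving 4 residual degrees of freedom, and was checked on simulated data; exact permutation of 2 arrays against 2 cannot go below p = 0.333. The number of arrays limits the precision. Members, lists and tests were chosen with earlier results of these data known. All members were accounted for; named pathway genes are Xbp1 and up to 3 called genes a list with the largest change, plus Eif2ak3, chosen after its values were seen. Alternatives covered scale, floor, filter, probe set, variance model, array weights, replicate block, left-out arrays and a 2-fold threshold.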

Additional observations from a re-analysis of the deposited data

Results flagged for a closer look

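For 28 members the GFP effect differed between BCR-ABL1 and splenic cells by a test of the difference itself (limma, adjusted p under 0.05). The values below are that difference, BCR-ABL1 minus spleen, as log2 fold changes. They share the GFP-negative splenic arrays, and 69% of all genes passed the same test, so they are listed as values only. Of the folding genes, Sdf2l1 stood at -3.30, Fkbp11 at -2.53, Pdia4 at -1.84, Hyou1 at -1.55, Creld2 at -1.17, Manf at -1.07 and Dnajc3 at -1.07. Pdia6 stood at -0.79, Pdia3 at -0.52, P4hb at -0.35, Hspa5 at -0.33 and Dnajb11 at -0.23. Of the translocation genes, Spcs2 stood at -0.70, Spcs3 at -0.60, Sec61a1 at -0.58, Sec61b at -0.54, Ssr4 at -0.44, Ssr1 at -0.29 and Ssr3 at -0.20. Of the degradation genes, Derl3 stood at -1.34, Edem1 at -0.90, Herpud1 at -0.37, Derl2 at -0.22 and Derl1 at 0.30. Of the stress signalling genes, Chac1 stood at -3.06, Trib3 at -2.83, Atf6 at -1.73 and Ern1 at 1.12. Derl1 and Ern1 were the 2 with a higher GFP effect in BCR-ABL1 cells, but Derl1 stood at -0.011 on the deposited scale and -0.16 with all arrays shifted to the same median. Probe sets of Derl1, Ern1, Sec61a1 and Ssr4 were called in both directions for this difference.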

How the results depend on the processing

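Leaving out each array in turn leaves 1 array in a group, which is then assumed to vary like the others. The share of all genes called moved with the array left out, so counts of members called are not compared across these fits. The loss of the Trib3 call when any of the 4 BCR-ABL1 arrays was left out is given above. For the GFP effect in BCR-ABL1 cells, the count of 1 member called became 2 with a floor of 64 (Trib3 and Chac1). It was also 2 with probe sets averaged per gene (Trib3 and Herpud1) and with the 4 BCR-ABL1 arrays fitted alone (Trib3 and Chac1). With array weights the count was 8. Over all genes 5.74%, 5.33%, 3.96% and 13% were called under these settings in the same order, against 5.37% in the results above. With the replicate number as a block the count was 3 (Trib3, Fkbp11 and Herpud1, with 2 residual degrees of freedom), where 5.85% of all genes were called. The block moved no other count by over 1.5 times. Same-numbered arrays share only a number: their deviations from the group means correlated at r = 0.13 in BCR-ABL1 cells and 0.27 in spleen, over 2 pairs each. At 2-fold or more as well, the counts were 0 in BCR-ABL1 cells, 12 in spleen, 12 for the difference, and 7 and 6 between sources in GFP-positive and GFP-negative cells. Over all genes the shares were 1.38%, 36.3%, 36.6%, 15.5% and 38.7% in the same order. Fewer genes pass by construction. The scales over tested genes, and the 4 BCR-ABL1 arrays normalized alone (count 1, where 3.66% of all genes were called), were chosen after seeing the data. The changes of sign listed next are those of values called after quantile normalization, under the alternative or under both. Further changes of sign, in values called under neither, numbered 37 of 988 for the GFP effect in BCR-ABL1 cells, 8 of 950 in spleen, 18 of 912 for the difference and 8 of 950 between the sources in GFP-positive cells. On the deposited scale, the splenic GFP effect changed sign for Edem2 (0.49), Syvn1 (0.013) and Derl1 (0.24). The difference (BCR-ABL1 minus spleen) changed sign there for Edem2 (-0.47) and Derl1 (-0.011). With all arrays shifted to the same median, the splenic GFP effect changed sign for Calr (0.037), Dnajb9 (0.48), Sec11c (0.26), Edem2 (0.65), Syvn1 (0.17), Derl1 (0.39) and Ddit3 (0.11). The difference (BCR-ABL1 minus spleen) changed sign there for Dnajb9 (-0.55), Sec11c (-0.26), Edem2 (-0.62), Syvn1 (-0.25) and Derl1 (-0.16). With probe sets averaged per gene, the splenic GFP effect changed sign for Syvn1 (0.049), Derl1 (0.73) and Derl2 (-0.028). The difference (BCR-ABL1 minus spleen) changed sign there for Derl1 (-0.51) and Derl2 (0.038). BCR-ABL1 over spleen, GFP-positive, changed sign there for Derl1 (-0.39) and Derl2 (0.22). With the median over the tested genes, the splenic GFP effect changed sign for Hspa5 (-0.33), Hsp90b1 (-0.28), Pdia3 (-0.13), P4hb (-0.24), Canx (-0.62), Dnajb11 (-0.23), Sec61b (-0.050), Ssr1 (-0.26), Ssr3 (-0.42), Ssr4 (-0.029), Herpud1 (-0.43), Sel1l (-0.44), Derl2 (-0.44) and Atf4 (-0.54). The difference (BCR-ABL1 minus spleen) changed sign there for Hspa5 (0.29), Pdia3 (0.025), P4hb (0.22), Canx (0.55), Dnajb11 (0.28), Sec61b (0.065), Ssr1 (0.28), Ssr3 (0.40), Ssr4 (0.13), Herpud1 (0.19), Sel1l (0.46), Derl2 (0.38) and Atf4 (0.57). With the median log2 ratio of the tested genes, the splenic GFP effect changed sign for Canx (-0.27), Ssr3 (-0.072), Derl2 (-0.10) and Atf4 (-0.20). The difference (BCR-ABL1 minus spleen) changed sign there for Ssr3 (0.087), Derl2 (0.066) and Atf4 (0.25). The cause of these changes of sign was not tested. For the GFP effect in BCR-ABL1 cells 0 of the 988 alternative values changed sign with a call under either setting.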
